A study of Mus musculus with 29 samples.

Results

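The 10 genes described here write, read, remove or protect DNA methylation in the mouse oocyte and zygote: Dnmt1, Dnmt3a, Dnmt3b, Dnmt3l, Uhrf1, Tet3, Dppa3, Nsd1, Setd2 and Kdm1b. They were chosen by symbol from the 49997 genes of the count table, with earlier results of these data known. Counts of members called, set beside the share of all genes, are therefore a description. The p-values of members do not allow for that choice. All 10 were present in both the count and the FPKM table, and all 10 passed the filter on low counts that left 21768 genes. They were followed across 10 groups of libraries. CKO libraries came from females labelled Dhx36 fl/fl with Zp3-Cre, in which Cre is driven in oocytes by the Zp3 promoter, and WT libraries came from females labelled Dhx36 fl/fl, so both genotypes carry the floxed alleles. The groups were growing oocytes at 2 weeks of age (GO 2W, 3 CKO and 3 WT libraries), fully grown oocytes at 3 weeks (FGO 3W, 2 and 2), fully grown oocytes at 4 weeks (FGO 4W, 3 and 3), metaphase II oocytes at 3 weeks (MII 3W, 4 and 3) and zygotes at 3 weeks (zygote 3W, 3 and 3). Each of the 29 libraries was a tube of 10 pooled cells sequenced by Smart-seq2, a full-length method that copies poly(A) RNA.

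CpG methylation in the mouse oocyte is laid down during growth by DNMT3A with its catalytically inactive partner DNMT3L, on chromatin carrying methylated H3K36. NSD1 and SETD2 place that H3K36 mark, and KDM1B removes H3K4 methylation, which blocks the DNMT3 enzymes. DNMT1, brought to hemimethylated CpG sites by UHRF1, copies methylation at replication, and after fertilization TET3 oxidizes 5-methylcytosine while DPPA3 shields the maternal genome from it. Dhx36 encodes a helicase that unwinds G-quadruplexes, 4-stranded structures of guanine-rich DNA or RNA.

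The sequences of interest for a G-quadruplex helicase are guanine-run motifs in these genes, searched as 4 runs of at least 3 G separated by 1 to 7 bases of any kind, with matches on a strand counted without overlap. The search took 1 transcript per gene, that with the longest coding sequence, on its sense strand (GENCODE vM21, GRCm38, the assembly that mm10 names). Of the 10 genes, 3 held a match, against 18.8% of 14771 genes. These were Dnmt1 in its coding sequence, and Dnmt3a and Nsd1 in their 3′ UTRs, where Dnmt3a held 2 matches of which 1 is shown. The 3 are shown because they are the members with a match. Each was called lower in CKO at 1 or more oocyte stages, and Dnmt1 was called higher in CKO at MII 3W. Of the members without a match, Dnmt3l, Dnmt3b and Dppa3 were also called lower at 1 or more oocyte stages. Uhrf1, Tet3, Setd2 and Kdm1b were not. The searched transcripts of Dnmt1, Dnmt3a and Nsd1 have 5367, 9685 and 12784 bases, beside a median of 2864 over all genes searched. That of Tet3 has 5944 bases, while all its annotated exons together hold 16695. Most exon bases of Tet3 were therefore not searched. A link between a match and a change was not tested. Capitals mark the guanine runs, and the strings are the spliced RNA sense written as DNA.
Dnmt1, coding sequence, chr9:20912576-20912599, minus strand: GGGaacaaaGGGaaaGGGaaGGGG
Dnmt3a, 3′ UTR, chr12:3913653-3913677, plus strand: GGGGttGGGacccaaGGGcagaGGG
Nsd1, 3′ UTR, chr13:55316272-55316296, plus strand: GGGGaGGGattGGGGGatgcaGGGG

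Promoter windows of 250 bases before to 50 bases after a start site (RefSeq, GRCm38.p6) were given for 8 of the 10 genes, and Dppa3 and Nsd1 had none. Over all 19326 windows, 22.9% held a motif on either strand and 12.9% held one on the sense strand. These 8 genes had 15 windows, of which 9 held a match on either strand: 1 of 3 for Dnmt1, 2 of 3 for Dnmt3a, 2 of 3 for Dnmt3l, 0 of 2 for Uhrf1, and the single window of each of Dnmt3b, Tet3, Setd2 and Kdm1b. On the sense strand, 1 window each of Dnmt1, Dnmt3a, Dnmt3b, Tet3 and Setd2 held a match. Windows with a match had 60.3% to 81% G and C bases, and those without had 51.3% to 82.3%. The part of base composition in these counts was not tested. The windows of the last 4 genes are shown because each gene has 1 window and Setd2 and Kdm1b, the histone-modifying genes of the 4, were higher in CKO at some stage, as was Tet3, while Dnmt3b was lower in CKO oocytes. Capitals mark the matches, on the sense strand as G runs and on the antisense strand as C runs. A match is a description of letters and was not tested for structure or for binding by DHX36.
Dnmt3b, chr2:153649199-153649498, plus strand: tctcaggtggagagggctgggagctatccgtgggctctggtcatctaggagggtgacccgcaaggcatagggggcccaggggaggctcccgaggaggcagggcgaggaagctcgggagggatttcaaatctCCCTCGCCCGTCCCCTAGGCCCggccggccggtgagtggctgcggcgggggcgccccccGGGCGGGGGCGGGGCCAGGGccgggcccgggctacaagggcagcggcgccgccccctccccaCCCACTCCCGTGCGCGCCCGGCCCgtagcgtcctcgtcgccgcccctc
Tet3, chr6:83441629-83441928, minus strand: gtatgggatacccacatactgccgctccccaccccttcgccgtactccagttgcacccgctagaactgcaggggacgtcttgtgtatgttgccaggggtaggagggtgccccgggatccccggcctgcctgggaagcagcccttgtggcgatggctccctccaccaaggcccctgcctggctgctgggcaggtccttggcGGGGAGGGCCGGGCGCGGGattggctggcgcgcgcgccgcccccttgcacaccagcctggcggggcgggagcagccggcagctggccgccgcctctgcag
Setd2, chr9:110532347-110532646, plus strand: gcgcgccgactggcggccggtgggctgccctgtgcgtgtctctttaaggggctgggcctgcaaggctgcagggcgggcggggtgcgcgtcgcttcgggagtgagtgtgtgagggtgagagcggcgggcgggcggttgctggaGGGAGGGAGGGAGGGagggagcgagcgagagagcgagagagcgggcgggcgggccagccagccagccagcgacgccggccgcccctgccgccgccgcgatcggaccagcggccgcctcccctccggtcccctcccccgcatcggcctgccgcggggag
Kdm1b, chr13:47043249-47043548, plus strand: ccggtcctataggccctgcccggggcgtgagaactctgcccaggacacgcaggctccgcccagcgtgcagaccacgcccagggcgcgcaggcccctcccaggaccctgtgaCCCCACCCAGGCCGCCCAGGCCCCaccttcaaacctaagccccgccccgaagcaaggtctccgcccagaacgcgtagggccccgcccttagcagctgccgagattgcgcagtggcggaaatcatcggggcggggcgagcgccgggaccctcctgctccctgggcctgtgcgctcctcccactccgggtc

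The libraries held between 17697507 and 49104313 counts. Replicates of a group correlated at 0.949 to 0.984 in log2 CPM, except in CKO zygotes, where the range was 0.902 to 0.932. Rn18s-rs5, a ribosomal RNA gene, took 21.9% of the counts of CKO MII 3W replicate 3 and 27.3% of those of CKO zygote 3W replicate 1, and at most 8.43% of any other library. Results at those stages are also given without these 2 libraries. All 12 oocyte markers were detected, and their summed level was lower in CKO than in WT libraries of GO 2W (24723 to 25485 CPM against 27449 to 32822 CPM), FGO 3W (19193 to 20275 against 23902 to 26675 CPM) and FGO 4W (13754 to 18522 against 23985 to 26995 CPM). At MII 3W (17113 to 24903 CPM in CKO against 23747 to 24543 CPM in WT) and in zygotes (6327 to 12463 against 12056 to 12878 CPM) the ranges of that sum overlapped. The sum of 15 granulosa and cumulus cell markers was higher in CKO oocytes of GO 2W (86.2 to 114 CPM against 52.1 to 74.3 CPM in WT), FGO 3W (105 to 106 against 62.9 to 64.3 CPM) and FGO 4W (64.9 to 84.1 against 53.0 to 58.2 CPM). It was also higher in CKO zygotes (76.3 to 159 CPM against 55.6 to 62.0 CPM in WT), and the ranges overlapped at MII 3W (94.9 to 159 CPM in CKO against 143 to 155 CPM in WT). Cyp19a1 gave most of that sum, with a median over libraries of 46.9 CPM. Kitl had a median of 10.5 CPM, Inha 2.17 CPM, Fshr 2.16 CPM, Gja1 1.44 CPM and Cyp11a1 1.27 CPM. Fshr reached 32.1 CPM and Inha 13.1 CPM in single libraries. Foxl2 and Amh had a median of 0 CPM, and the rest lay between 0.0987 CPM (Amhr2) and 0.837 CPM (Star). The part of these markers in the results on the 10 genes was not tested. Sums of 6 immune and 6 stromal markers stayed at or below 7.56 CPM in every library except CKO zygote 3W replicate 3, where the immune sum was 37.4 CPM, and the sperm markers summed to at most 11.2 CPM.

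Whole-gene counts of Dhx36 did not fall in CKO libraries. Dhx36 averaged 76.9 ± 15.1 CPM in CKO and 70.7 ± 6.61 CPM in WT growing oocytes (SD, n = 3 each), and 1426 ± 1292 CPM in CKO (n = 4) and 412 ± 16.0 CPM in WT (n = 3) MII oocytes, where it was called higher (log2 change 1.79, SE 0.43, edgeR adjusted p = 0.002). The sources used here do not say which exons are deleted, and the count of the whole gene is therefore no check of the labels. Fewer cells of a kind and less RNA per cell cannot be told apart in these pooled tubes.

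**Figure D1:**
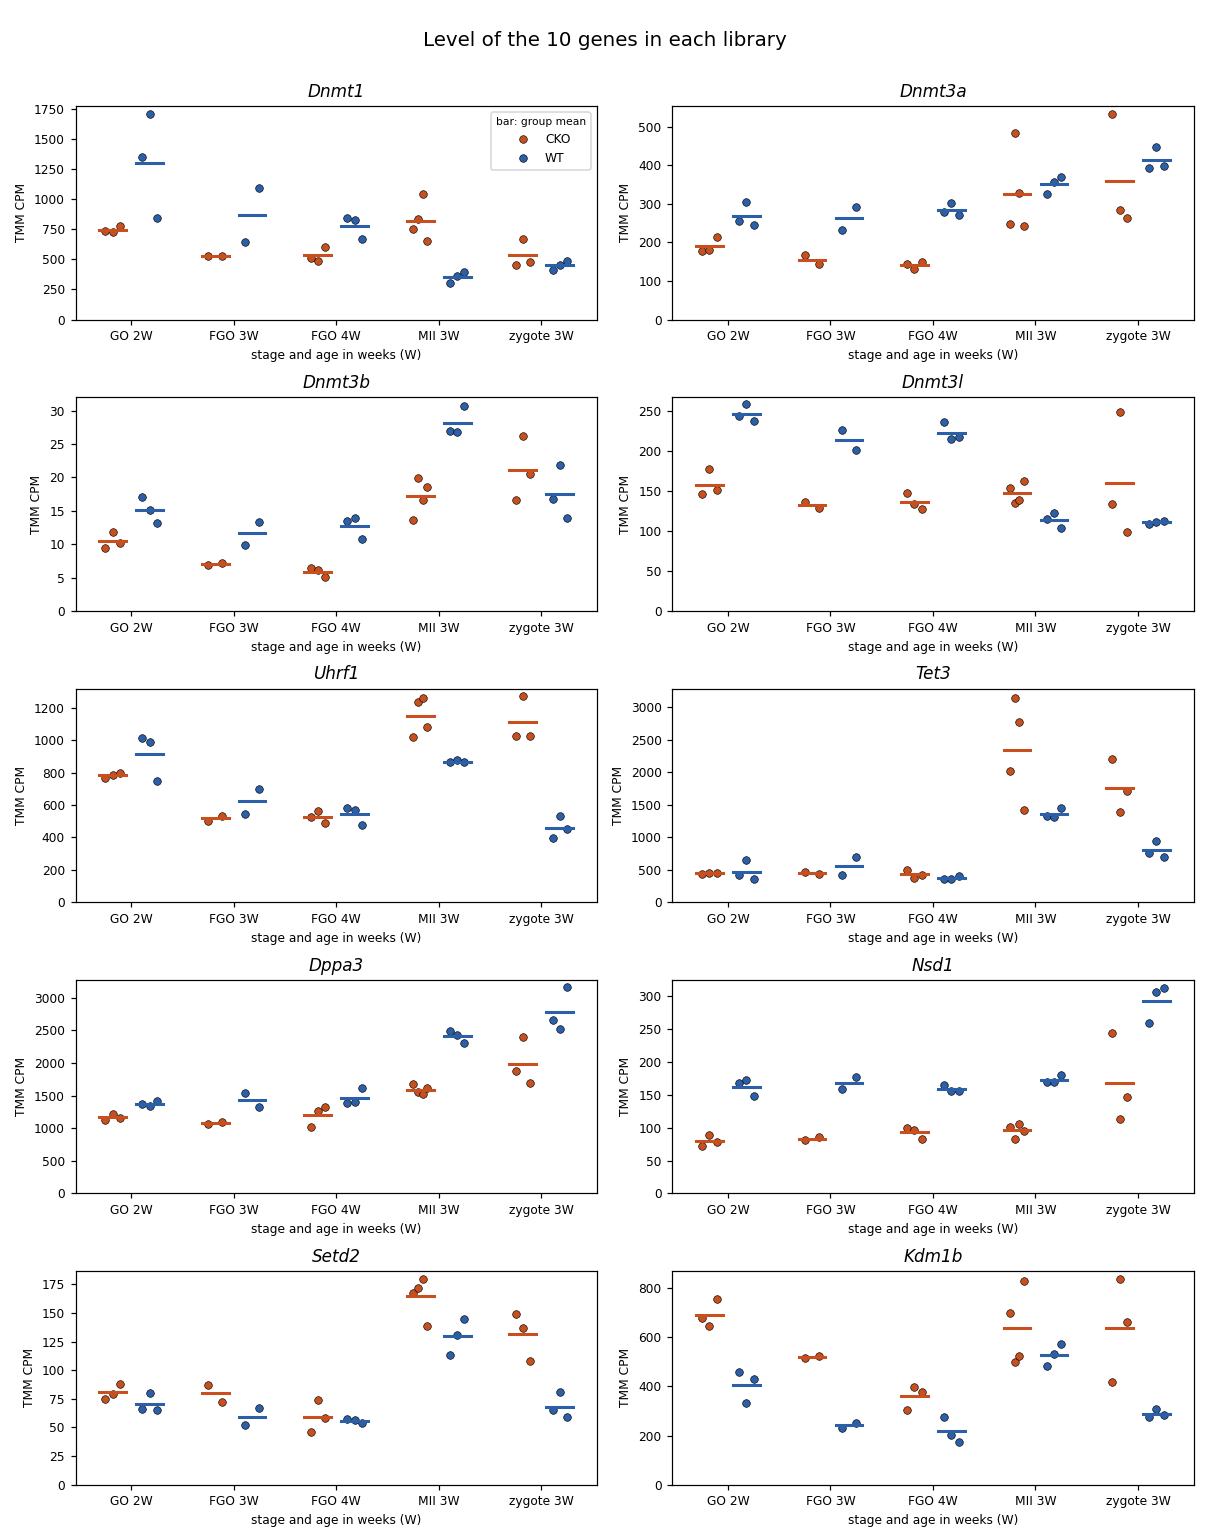
TMM-scaled CPM (linear axis from 0) of the 10 genes in each library at the 5 stages, CKO in orange left of WT in blue, with group means as bars. Nsd1 lies lower in every CKO library than in every WT library of the same stage, and Dnmt1 lies lower in CKO up to FGO 4W but higher at MII 3W.

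The first question was which of the 10 genes differed between CKO and WT oocytes during growth and at full size. Levels are CPM scaled by TMM size factors, which equalize the bulk of genes between libraries. A level is thus relative to the other poly(A) RNAs captured, and amounts per cell were not measured. Each change is the log2 ratio of CKO to WT, and a gene was called where its adjusted p was under 0.05 in edgeR's quasi-likelihood test over all genes. At GO 2W 4 of the 10 genes were called, 3 lower (Dnmt1, Dnmt3l and Nsd1) and 1 higher (Kdm1b), where 13.7% of all genes tested were called. At FGO 3W 3 were called (Dnmt3l and Nsd1 lower, Kdm1b higher) against 17.8% of all genes, and at FGO 4W 5 were called (Dnmt3a, Dnmt3b, Dnmt3l and Nsd1 lower, Kdm1b higher) against 26.6%. The median change of the 10 genes was -0.37, -0.56 and -0.42 at these stages, beside -0.01, -0.05 and 0.00 over all genes.

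Dnmt3a, the de novo methyltransferase of the oocyte, was lower in CKO at FGO 4W, at 50.04% of its WT mean. In that group it measured 144, 132 and 149.9 CPM in the CKO libraries, against 279.8, 301 and 270.0 CPM in the WT libraries. The CKO libraries all lay below the WT libraries, and the change was called (log2 change -0.999, SE 0.22, adjusted p = 0.0012). At GO 2W Dnmt3a measured 176, 181 and 213 CPM in CKO and 256, 303 and 245 CPM in WT, and at FGO 3W 168 and 143 CPM in CKO and 232 and 293 CPM in WT. Those groups did not overlap either, but the changes did not pass the test (-0.49, adjusted p = 0.14, and -0.76, adjusted p = 0.051). The direction was the same at the 3 stages, and the differences of the FGO 4W change from those at GO 2W and FGO 3W did not pass the test (-0.50 and -0.24, adjusted p = 0.43 and 0.86).

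Dnmt3l, the cofactor that stimulates DNMT3A, was lower in CKO at GO 2W and at both fully grown stages. Its values were 146, 178 and 151 CPM in CKO and 244, 259 and 238 CPM in WT at GO 2W, 136 and 128 CPM in CKO and 226 and 202 CPM in WT at FGO 3W, and 147, 133 and 128 CPM in CKO and 236, 215 and 218 CPM in WT at FGO 4W. No CKO library reached the lowest WT library at any of these stages. The log2 changes were -0.64 (adjusted p = 0.026), -0.70 (adjusted p = 0.042) and -0.71 (adjusted p = 0.0073). These calls were lost when libraries were scaled by their total alone (-0.48, -0.43 and -0.53, adjusted p = 0.142, 0.282 and 0.0641), and those at GO 2W and FGO 3W also in 4 of 6 and in 4 of 4 fits that left out 1 library.

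Dnmt3b, a de novo methyltransferase that is dispensable for methylation in mouse oocytes, was the least abundant of the 10. It measured 6.42, 6.09 and 5.14 CPM in the CKO libraries and 13.4, 13.9 and 10.8 CPM in the WT libraries of FGO 4W. The lowest WT library was above the highest CKO library, and the change was called (log2 change -1.11, SE 0.22, adjusted p = 0.00043). The changes of -0.53 at GO 2W and -0.73 at FGO 3W did not pass the test (adjusted p = 0.11 and 0.057).

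Nsd1, which encodes the enzyme that places dimethylation on H3K36, was the only one of the 10 genes called at all 5 stages, in each lower in CKO. Its values at GO 2W were 71.6, 89.1 and 78.1 CPM in CKO and 167, 172 and 149 CPM in WT. They were 82.0 and 85.2 CPM in CKO and 159.6 and 177 CPM in WT at FGO 3W, and 100.2, 96.8 and 83.6 CPM in CKO and 166, 155 and 156 CPM in WT at FGO 4W. CKO oocytes thus held 48.9% to 58.8% of the WT mean at these stages, and the groups stood apart in each. The log2 changes were -1.03 (SE 0.18, adjusted p = 0.00028), -1.01 (SE 0.22, adjusted p = 0.0018) and -0.77 (SE 0.18, adjusted p = 0.0021), and the calls at the 3 stages were kept under all alternative settings run.

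Setd2, which encodes the enzyme that places trimethylation on H3K36 in transcribed genes, was not called at these stages. It measured 75.1, 78.9 and 87.8 CPM in CKO and 66.3, 80.0 and 65.4 CPM in WT at GO 2W, 87.5 and 72.1 CPM in CKO and 52.1 and 66.9 CPM in WT at FGO 3W, and 46.4, 74.4 and 57.9 CPM in CKO and 57.1, 56.2 and 54.2 CPM in WT at FGO 4W. The 2 genotypes overlapped at GO 2W and FGO 4W. The log2 changes were 0.19, 0.42 and 0.09 (adjusted p = 0.52, 0.18 and 0.75).

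Kdm1b, the H3K4 demethylase needed for oocyte imprints in mice, went the other way. At GO 2W it measured 677, 646 and 755 CPM in CKO, against 458, 334 and 431 CPM in WT. At FGO 3W the values were 515 and 526 CPM in CKO, against 231 and 252 CPM in WT, and at FGO 4W 304, 399 and 379 CPM in CKO, against 277, 203 and 174 CPM in WT. Every CKO library exceeded every WT library of its stage, with log2 changes of 0.77 (adjusted p = 0.012), 1.11 (adjusted p = 0.0029) and 0.73 (adjusted p = 0.0099). The GO 2W call was lost without WT GO 2W replicate 2 (0.64, adjusted p = 0.0882) or CKO GO 2W replicate 3 (0.70, adjusted p = 0.0609), and the FGO 4W call without WT FGO 4W replicate 3 (0.59, adjusted p = 0.0697).

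Dnmt1, the maintenance methyltransferase, was lower in CKO growing oocytes. At GO 2W it measured 738, 728 and 776 CPM in CKO and 1351, 1703 and 842 CPM in WT. At FGO 3W both CKO libraries were at 531 CPM, against 642 and 1095 CPM in WT, and at FGO 4W the CKO libraries had 509, 487 and 600.1 CPM, against 841, 824 and 670.0 CPM in WT. CKO lay below WT in each group, and the WT libraries of GO 2W and FGO 3W spread widely. The change was called at GO 2W (-0.80, SE 0.21, adjusted p = 0.011), not at FGO 3W (-0.71, adjusted p = 0.056) or FGO 4W (-0.55, adjusted p = 0.053), and the GO 2W call was lost without WT GO 2W replicate 2 (-0.55, adjusted p = 0.123) and with library totals (-0.63, adjusted p = 0.0592).

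Uhrf1, Tet3 and Dppa3 were called at none of these 3 stages. Uhrf1, which binds hemimethylated CpG and recruits DNMT1, averaged 783 ± 13.5 CPM in CKO and 916 ± 147 CPM in WT at GO 2W, and 527 ± 37.6 CPM in CKO and 542 ± 56.9 CPM in WT at FGO 4W (SD, n = 3 each). Tet3, the 5-methylcytosine dioxygenase of the zygote, averaged 444 ± 12.3 CPM in CKO and 470.0 ± 154 CPM in WT at GO 2W, and 429.5 ± 63.9 CPM in CKO and 376 ± 29.5 CPM in WT at FGO 4W. For both genes the CKO and WT libraries overlapped at GO 2W and FGO 4W. At FGO 3W Uhrf1 measured 502 and 532 CPM in CKO and 542 and 701 CPM in WT, without overlap (-0.27, adjusted p = 0.31). Tet3 overlapped there too (-0.31, adjusted p = 0.50). Dppa3 measured 1128, 1213 and 1160.0 CPM in CKO and 1368, 1340.5 and 1424 CPM in WT at GO 2W, with no overlap. CKO also lay below WT at FGO 3W (1063 to 1090 against 1333 to 1545 CPM) and FGO 4W (1018 to 1320 against 1395 to 1611 CPM). Its log2 changes of -0.24, -0.42 and -0.29 at GO 2W, FGO 3W and FGO 4W had adjusted p of 0.23, 0.064 and 0.099.

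**Figure D2:**
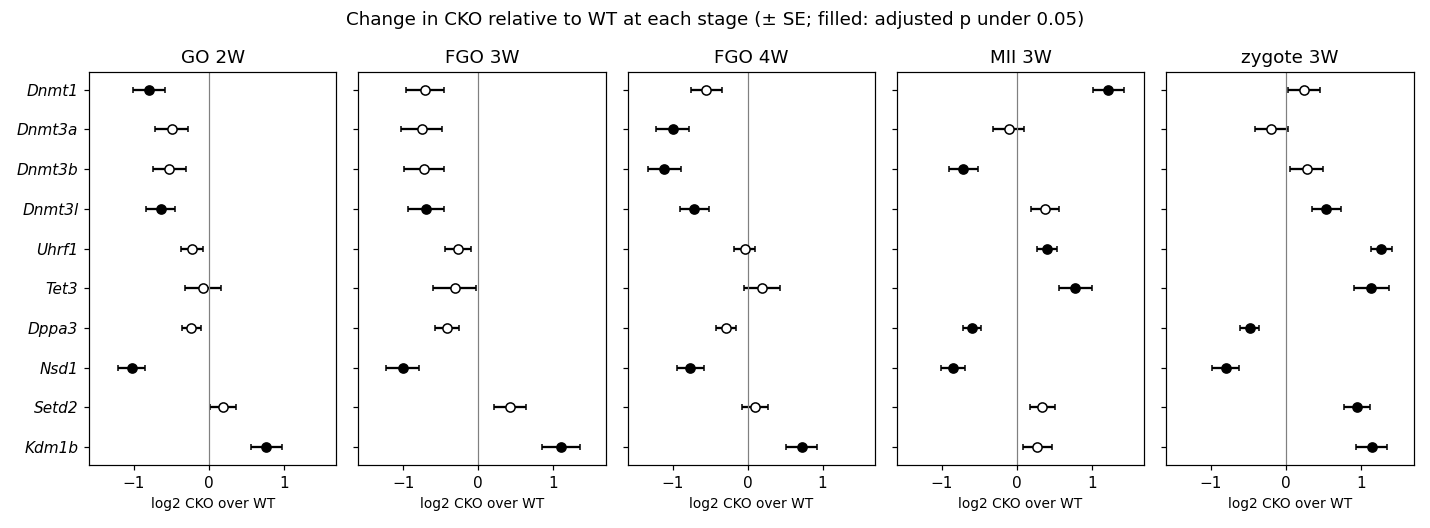
Log2 change in CKO relative to WT (horizontal axis, ± SE from edgeR) of the 10 genes at each stage, filled where the adjusted p was under 0.05. Dnmt1 is at -0.80 in GO 2W and at 1.22 in MII 3W, while Nsd1 lies between -1.03 and -0.77 at all 5 stages.

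The same comparison in MII oocytes asked which of these RNAs differed after meiotic maturation. At MII 3W 6 of the 10 genes were called, where 32.9% of all genes were. Dnmt1, Tet3 and Uhrf1 were higher in CKO, and Dnmt3b, Dppa3 and Nsd1 were lower. Without CKO MII 3W replicate 3, the library rich in Rn18s-rs5, 6 were called as well.

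Dnmt1 was 2.33-fold as high in CKO as in WT MII oocytes, with 752, 835, 1040.0 and 651 CPM in CKO against 303, 359 and 391 CPM in WT. The lowest CKO library was well above the highest WT library. The log2 change was 1.22 (SE 0.20, adjusted p = 3.1e-05), it stayed at 1.11 (adjusted p = 0.00011) without the library rich in Rn18s-rs5, and the call was kept under all 17 alternatives. Uhrf1 measured 1022, 1234, 1260.4 and 1079 CPM in CKO and 864, 876 and 863 CPM in WT, again with no overlap, and was called with a smaller change (0.41, SE 0.13, adjusted p = 0.019). That call was lost when MII 3W was fitted alone (0.35, adjusted p = 0.0591).

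Tet3 was higher in CKO MII oocytes with a wide spread, at 2029, 3152, 2775 and 1415 CPM in CKO and 1323, 1311 and 1452 CPM in WT. The lowest CKO library lay within the WT range, and the change was called (0.78, SE 0.22, adjusted p = 0.0077). Dppa3 was lower, at 1679, 1557, 1519.8 and 1609.8 CPM in CKO and 2494, 2435 and 2303 CPM in WT, so that CKO held 66.0% of the WT mean. These groups stood apart, and the change was called (-0.60, SE 0.12, adjusted p = 0.00027). At this stage the RNA of the oxidizing enzyme was thus higher and that of the protector lower, and both calls were kept under all 17 alternatives.

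Of the DNMT3 genes, Dnmt3b was called lower in CKO at MII 3W and the other two were not called. Dnmt3b measured 13.6, 19.9, 16.7 and 18.6 CPM in CKO and 27.0, 26.8 and 30.8 CPM in WT, and the change was called (-0.71, adjusted p = 0.0067). That call was lost with library totals as the only scaling (-0.52, adjusted p = 0.0699). Dnmt3a measured 247, 483, 328 and 243 CPM in CKO and 324, 357 and 369.7 CPM in WT, with no call (-0.11, adjusted p = 0.74) and with CKO libraries on both sides of WT. Dnmt3l measured 154, 136, 139 and 162 CPM in CKO and 115, 123 and 104 CPM in WT, on the other side of WT from the growing stages but not called (0.38, adjusted p = 0.12).

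Nsd1 stayed low in CKO, at 101, 82.8, 106 and 94.8 CPM in CKO and 169, 170.2 and 181 CPM in WT. It held 55.5% of the WT mean with no overlap (-0.85, SE 0.17, adjusted p = 0.00023). Setd2 averaged 165 ± 17.9 CPM in CKO (n = 4) and 129.9 ± 15.5 CPM in WT (n = 3), and Kdm1b 638 ± 156 CPM in CKO and 529 ± 44.9 CPM in WT. Neither was called (0.34 and 0.27, adjusted p = 0.11 and 0.3), and the genotypes overlapped for both.

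In zygotes, which carry the maternal RNAs into the period when TET3 acts, 7 of the 10 genes were called, where 27.0% of all genes were. Uhrf1, Tet3, Kdm1b, Setd2 and Dnmt3l were higher in CKO, and Nsd1 and Dppa3 were lower. Without CKO zygote 3W replicate 1, the library rich in Rn18s-rs5, 8 were called, as Dnmt3a then passed the test.

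Uhrf1 was 2.41-fold as high in CKO as in WT zygotes, at 1026, 1275 and 1027 CPM in CKO against 395, 530.1 and 454 CPM in WT. The groups stood far apart (log2 change 1.27, SE 0.14, adjusted p = 2.3e-07). Tet3 measured 2206, 1384 and 1707 CPM in CKO and 759, 947 and 700.1 CPM in WT, also without overlap (1.14, SE 0.24, adjusted p = 0.00063). Its change was 0.88 (adjusted p = 0.0098) without the library rich in Rn18s-rs5, which had the highest of the 3 CKO values.

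Setd2 and Kdm1b, which modify the histones that guide de novo methylation, were both higher in CKO zygotes. Setd2 measured 149, 137 and 108 CPM in CKO and 64.9, 81.1 and 58.8 CPM in WT (0.94, SE 0.17, adjusted p = 0.00017). Kdm1b measured 417, 836 and 662 CPM in CKO and 275, 308 and 285 CPM in WT (1.14, SE 0.21, adjusted p = 0.00014). For each gene the lowest CKO library lay above the highest WT library, and the calls of both, like those of Uhrf1 and Tet3, were kept under all 16 alternatives.

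Dppa3 was lower in CKO zygotes, at 1881, 2393 and 1694 CPM in CKO and 2668, 2522 and 3169.7 CPM in WT (-0.49, SE 0.13, adjusted p = 0.0053). Nsd1 measured 245, 113 and 146 CPM in CKO and 260.0, 306 and 313 CPM in WT (-0.80, SE 0.18, adjusted p = 0.0013). The highest CKO value of Nsd1 was that of the library rich in Rn18s-rs5, and without it the change was -1.25 (adjusted p = 3.9e-07). Both calls were lost when the zygote libraries were fitted alone (adjusted p = 0.127 for Dppa3 and 0.0904 for Nsd1).

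The DNMT genes spread widely over the CKO zygote libraries. Dnmt3l measured 134, 249 and 98.2 CPM in CKO and 108, 111 and 113 CPM in WT, and its call (0.54, adjusted p = 0.04) was lost in 4 of 6 fits that left out 1 library. Without CKO zygote 3W replicate 2 its change was 0.07 (adjusted p = 0.776). Dnmt3a measured 533, 283 and 262 CPM in CKO and 392, 448 and 398 CPM in WT. It was not called with all libraries (-0.20, adjusted p = 0.54), and was called lower without CKO zygote 3W replicate 1 (-0.67, adjusted p = 0.015). Dnmt1 measured 451, 667 and 478 CPM in CKO and 411, 455 and 488 CPM in WT, and Dnmt3b 16.7, 26.2 and 20.6 CPM in CKO and 16.7, 21.8 and 13.9 CPM in WT, with overlap and no call for either (0.24 and 0.28, adjusted p = 0.43 and 0.37).

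Averaged across the 5 stages, the CKO over WT change was called for 9 of the 10 genes, where 47.9% of all genes were called. Nsd1 (-0.89), Dnmt3b (-0.56), Dnmt3a (-0.51), Dppa3 (-0.41) and Dnmt3l (-0.23) were lower, and Kdm1b (0.80), Setd2 (0.40), Tet3 (0.34) and Uhrf1 (0.23) were higher. Dnmt1 was not called (-0.12, adjusted p = 0.33). Its changes had opposite signs at different stages, and so did those of 4 genes whose mean was called. Uhrf1 and Dnmt3l were each negative at 3 stages and positive at 2. Tet3 was negative at 2 and positive at 3, and Dnmt3b negative at 4 and positive at 1. Only Dnmt1 and Dnmt3l were called in both directions. The negative changes of Tet3 and Uhrf1 and the positive change of Dnmt3b were not called, so those signs are uncertain. The negative changes of Tet3 reached 0.22 at GO 2W and 0.11 at FGO 3W in fits that left out 1 library. An exact two-sided permutation test of single genes, over the 1680000 ways of exchanging libraries between genotypes within stages, gave p = 5.95e-07 for Nsd1 and for Dppa3, the smallest value it can give. It gave 1.07e-05 for Kdm1b, 0.00035 for Setd2, 0.000457 for Dnmt3a, 0.000477 for Dnmt3b and 0.0309 for Tet3. The same test gave 0.0789 for Uhrf1, 0.0922 for Dnmt3l and 0.578 for Dnmt1, and the edgeR call of the mean for Dnmt3l (adjusted p = 0.038) was lost in 28 of 38 alternatives.

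Whether the CKO over WT change itself differed between stages was then tested for 4 pairs of stages. Between FGO 3W and MII 3W, both at 3 weeks, the change of 4 of the 10 genes differed, where 14.7% of all genes did. The change of Dnmt1 was higher at MII 3W by 1.93 (log2, SE 0.33, adjusted p = 0.00015), that of Dnmt3l by 1.07 (SE 0.30, adjusted p = 0.016), that of Tet3 by 1.10 (SE 0.36, adjusted p = 0.041) and that of Uhrf1 by 0.67 (SE 0.22, adjusted p = 0.037). The Dnmt1 difference was kept under all 21 alternatives and that of Dnmt3l under 18 of 21. Those of Tet3 and Uhrf1 were each lost under 15 of 21, among them the comparison of MII 3W with FGO 4W (0.59 and 0.44, adjusted p = 0.217 and 0.115).

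From MII 3W to the zygote, the change differed for 4 of the 10 genes as well, where 15.7% of all genes differed. That of Dnmt1 was lower in the zygote by 0.99 on the log2 scale (difference -0.99, SE 0.29, adjusted p = 0.019), and this call was kept under all 22 alternatives. Those of Dnmt3b (0.99, adjusted p = 0.022), Uhrf1 (0.87, adjusted p = 0.0023) and Kdm1b (0.87, adjusted p = 0.034) were higher. The Kdm1b difference was lost under 13 and that of Dnmt3b under 10 of 22 alternatives, and that of Uhrf1 under 3, including library totals as the only scaling (0.55, adjusted p = 0.0767). For FGO 4W against GO 2W and against FGO 3W, edgeR called none of the 10 (0 at an unadjusted p under 0.05 in both), where 5.37% and 2.72% of all genes were called.

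How the 10 RNAs moved from stage to stage was compared within each genotype. A rise or fall here is relative to the other poly(A) RNAs captured. A change in the amount of an RNA cannot be told apart from one in its poly(A) tail. Between GO 2W and FGO 4W, Uhrf1 and Kdm1b were lower at FGO 4W in both genotypes, Uhrf1 by -0.57 in CKO (adjusted p = 0.0054) and -0.76 in WT (adjusted p = 0.0026), and Kdm1b by -0.94 in CKO (adjusted p = 0.002) and -0.90 in WT (adjusted p = 0.015). Dnmt3b was also called lower in CKO (-0.83, adjusted p = 0.009). Leaving out CKO FGO 4W replicate 3 ended the Dnmt3b call (-0.74, adjusted p = 0.0531), and that of Kdm1b in WT was lost in 4 of 6 fits that left out 1 library (largest adjusted p = 0.119, -0.76, without WT FGO 4W replicate 3). In CKO 3 of 10 genes were called, where 17.1% of all genes were, and in WT 2 of 10, where 2.47% were. Between FGO 3W and FGO 4W edgeR called none of the 10 in CKO or WT (2 and 1 at an unadjusted p under 0.05), where 6.89% and 0.579% of all genes were called.

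From FGO 3W to MII 3W the genotypes parted in Dnmt1. In CKO, Dnmt1 was higher at MII 3W (log2 change 0.63, adjusted p = 0.024), and in WT it was lower (-1.31, adjusted p = 2.7e-05). The CKO rise turned to -0.065 with library totals as the only scaling and its call was lost in 5 of 6 fits that left out 1 library (0.39, adjusted p = 0.173, without the one rich in Rn18s-rs5), while the WT fall was kept under all 14 alternatives. Dnmt3l was lower at MII 3W in WT (-0.91, adjusted p = 0.00078), with a CKO change of 0.16 (adjusted p = 0.54). The CKO change of Dnmt3l was -0.51 with library totals (adjusted p = 0.0514) and was called lower with log2(FPKM + 1) (-0.51, adjusted p = 0.0423) and log2(FPKM + 0.1) (-0.52, adjusted p = 0.0427), so that its direction in CKO depends on the scaling. The size factors matter here, because the median of all genes was -0.24 in CKO and -0.28 in WT with TMM factors, and -0.91 and -0.88 with library totals alone.

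Tet3 was higher at MII 3W in both genotypes, by 2.39 in CKO (SE 0.28, adjusted p = 4.5e-08) and by 1.30 in WT (SE 0.27, adjusted p = 0.00025). Without WT FGO 3W replicate 1 the WT change of Tet3 was 0.86 and no longer called (adjusted p = 0.0527). Dnmt3b rose by 1.29 in CKO and 1.28 in WT, and Setd2 by 1.04 in CKO and 1.13 in WT. Uhrf1 rose by 1.15 in CKO and 0.48 in WT. Its WT value turned to -0.14 with library totals, and its WT call was lost in 4 of 5 fits that left out 1 library, with changes between 0.20 (adjusted p = 0.48, without WT FGO 3W replicate 1) and 0.66. Dppa3 rose by 0.56 in CKO and 0.74 in WT, the CKO value turning to -0.11. Dnmt3a was called higher in CKO (1.07, adjusted p = 0.00057; in WT 0.42, adjusted p = 0.17) and Kdm1b in WT (1.13, adjusted p = 0.00025; in CKO 0.29, adjusted p = 0.28). With library totals the WT value of Dnmt3a was -0.20 and the CKO value of Kdm1b -0.37 (adjusted p = 0.504 and 0.226). Nsd1 was called in neither genotype (0.20 in CKO and 0.04 in WT), and with library totals the values were -0.48 and -0.57. Library totals also ended the calls of Dnmt3a (0.38, adjusted p = 0.148) and Setd2 (0.36, adjusted p = 0.118) in CKO and of Dppa3 (0.14, adjusted p = 0.506) and Kdm1b (0.52, adjusted p = 0.12) in WT. In all, 7 of 10 were called in CKO, where 50.1% of all genes were, and 8 of 10 in WT, where 48.3% were.

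From MII 3W to the zygote, 6 of the 10 genes were called in WT, where 34.0% of all genes were, and 2 in CKO, where 22.2% were. In WT, Setd2 (-0.93), Uhrf1 (-0.92), Kdm1b (-0.87), Tet3 (-0.76) and Dnmt3b (-0.69) were lower in the zygote. In CKO the same 5 genes had changes of -0.32, -0.05, 0.00, -0.41 and 0.30, and none of them was called. Of these 5 genes the difference between genotypes was called for Uhrf1, Kdm1b and Dnmt3b, as given above, and not for Setd2 or Tet3 (0.60 and 0.36, adjusted p = 0.084 and 0.51). Nsd1 was higher in the zygote in both genotypes (0.81 in CKO and 0.76 in WT, adjusted p = 0.00066 and 0.0014), and Dnmt1 was lower in CKO (-0.62, adjusted p = 0.024; -0.44, adjusted p = 0.178, without the libraries rich in Rn18s-rs5). Library totals ended the WT calls of Kdm1b (-0.47, adjusted p = 0.134), Tet3 (-0.37, adjusted p = 0.237) and Dnmt3b (-0.29, adjusted p = 0.376). Of 6 fits that left out 1 library, 4 lost the Tet3 call and 3 the Dnmt3b call in WT, with the largest adjusted p (0.0994 and 0.114) without WT zygote 3W replicate 3. The Dnmt1 call in CKO was lost in 3 of 7 such fits. These comparisons share libraries with those between genotypes and are not independent of them.

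**Figure D3:**
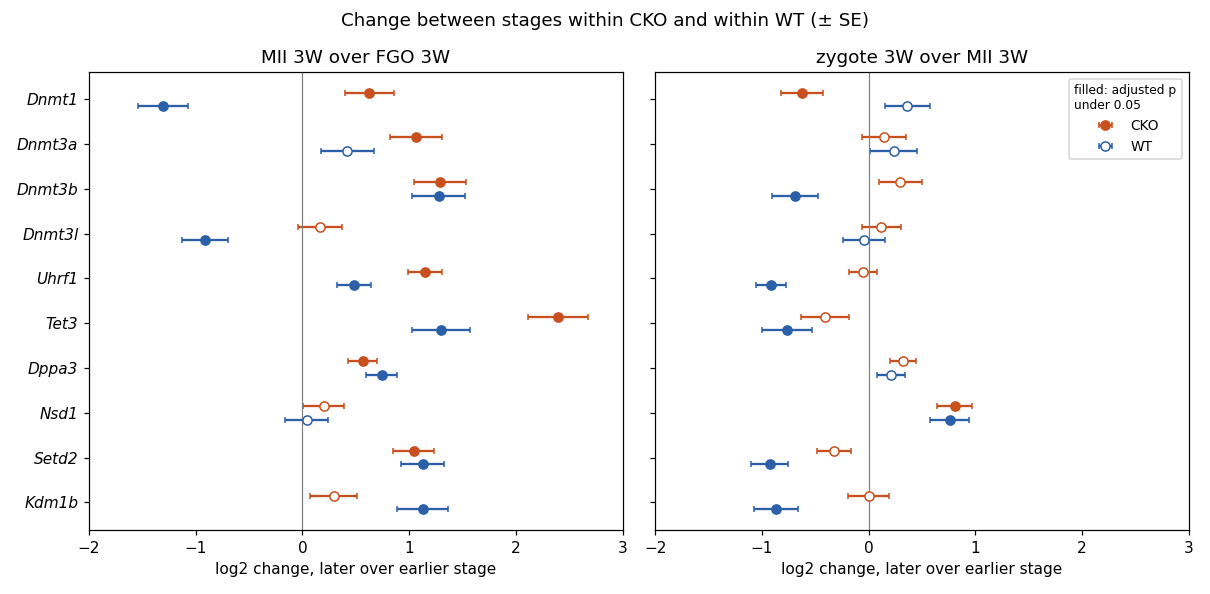
Log2 change from FGO 3W to MII 3W (left) and from MII 3W to the zygote (right) within CKO (orange, upper) and WT (blue, lower), ± SE from edgeR, filled where the adjusted p was under 0.05. Dnmt1 shows 0.63 in CKO (-0.065 with library totals) and -1.31 in WT on the left, and Uhrf1 -0.05 in CKO and -0.92 in WT on the right.

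To compare levels between genes, the authors' deposited FPKM, which divide by gene length, were used. Dppa3 was the most abundant of the 10 in every group, at 1780.5 ± 27.0 FPKM in CKO and 1868 ± 42.5 FPKM in WT growing oocytes (SD, n = 3 each), and Dnmt3b the least abundant, at 2.25 ± 0.207 FPKM in CKO and 2.90 ± 0.392 FPKM in WT. In CKO GO 2W the order from high to low was Dppa3, Uhrf1, Kdm1b, Dnmt1, Dnmt3l, Tet3, Setd2, Dnmt3a, Nsd1 and Dnmt3b, where Kdm1b and Dnmt1, and Setd2 and Dnmt3a, overlapped over libraries. In WT GO 2W it was Dppa3, Uhrf1, Dnmt1, Dnmt3l, Kdm1b, Tet3, Dnmt3a, Nsd1, Setd2 and Dnmt3b, where Uhrf1 and Dnmt1, and Dnmt3a and Nsd1, overlapped. Kdm1b thus stood beside Dnmt1 in CKO and below Dnmt3l in WT.

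At MII 3W the order in FPKM was Dppa3, Uhrf1, Tet3, Dnmt1, Kdm1b, Dnmt3l, Setd2, Dnmt3a, Nsd1 and Dnmt3b in CKO, and Dppa3, Uhrf1, Tet3, Kdm1b, Dnmt1, Dnmt3l, Setd2, Dnmt3a, Nsd1 and Dnmt3b in WT. Tet3, Dnmt1 and Kdm1b overlapped one with the next in CKO, as did Tet3 with Kdm1b in WT, and Setd2 with Dnmt3a in both. The place of some genes depends on the length used. The FPKM imply 24667 bases for Dnmt3a and 12865 for Tet3. Their GENCODE transcripts with the longest coding sequence have 9685 and 5944 bases. That of Tet3 has 5412 coding bases, and all annotated exons of Tet3 together hold 16695 bases. Its level per kilobase thus depends on the transcript taken. Per kilobase of those transcripts Tet3, at 394 ± 130.4 CPM per kb, stood above Uhrf1, at 320.3 ± 32.5 CPM per kb, in CKO MII oocytes, though the libraries of the 2 genes overlapped. On that measure Dnmt3a stood above Setd2 without overlap, the reverse of their FPKM order. The means were 19.6 and 9.65 CPM per kb in CKO GO 2W, 33.6 and 19.7 in CKO MII 3W, and 36.2 and 15.6 in WT MII 3W.

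Over the 10 group means each gene kept its own range. Tet3 varied most, 6.23-fold between its highest group (CKO MII 3W, 2343 ± 775 CPM) and its lowest (WT FGO 4W, 376 ± 29.5 CPM), and Dnmt3l least, 2.23-fold between WT GO 2W (247 ± 11.2 CPM) and WT zygotes (111 ± 2.21 CPM). Dnmt1 ranged 3.70-fold, and both its highest group (GO 2W) and its lowest (MII 3W) were WT. As a description, the genes most like 4 of these genes over the 10 group means of log2 CPM were named by Pearson's r. For Dnmt1 they were Mapk3 (0.945), Arhgef7 (0.945) and Clptm1 (0.927), and for Dnmt3a Csrnp3 (0.976), Rnf220 (0.976) and Bcl6 (0.972). For Tet3 they were Pakap (0.991), Itpr1 (0.988) and Bod1 (0.987), and for Dppa3 Riok1 (0.984), Mospd1 (0.971) and Cdk8 (0.969). All genes share the same 29 libraries and size factors, so these values carry no test.

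Of the 10 genes, 3 share exon bases with a gene on the opposite strand in GENCODE vM21, and the strand setting of the counting is not given in the sources used here. Kdm1b (chromosome 13) overlaps Dek by 505 bases, Dnmt3l (chromosome 10) overlaps Aire by 67 bases, and Dnmt3a (chromosome 12) overlaps Dnmt3aos by 133 bases. Dek, a chromatin protein gene with 1394 to 8567 counts per library, had log2 changes of -0.58, -0.49 and -0.56 at GO 2W, FGO 3W and FGO 4W (adjusted p = 0.017, 0.095 and 0.012), opposite in sign to Kdm1b. Aire, with 241 to 1105 counts, had log2 changes of -0.25, -0.31 and -0.57 at those stages (adjusted p = 0.53, 0.49 and 0.068) and was called higher at MII 3W (0.71, adjusted p = 0.014), the same signs as Dnmt3l. Dnmt3aos held at most 61 counts in a library, and the lowest Dnmt3a count was 3529. Dnmt3aos was called lower in CKO at FGO 4W (-4.985, adjusted p = 0.0021), as Dnmt3a was, and in zygotes (-3.085, adjusted p = 0.015). It was not called at GO 2W, FGO 3W or MII 3W. Reads from the bases shared by these gene pairs cannot be told apart, and their part in the results was not tested.

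Beyond the 10 genes, 95 other genes of the pathway were followed in 6 lists, and 93 of these genes passed the filter. The lists too were chosen with earlier results of these data known, so their shares called are a description. The share called was 11.8% at GO 2W, 18.3% at FGO 3W, 24.7% at FGO 4W, 44.1% at MII 3W and 39.8% in zygotes, beside 13.7%, 17.8%, 26.6%, 32.9% and 27.0% of all genes.

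Among 9 genes of the maintenance machinery, 1 was higher and 0 lower at GO 2W, 0 and 3 at FGO 3W, 1 and 4 at FGO 4W, 1 and 3 at MII 3W, and 3 and 2 in zygotes. Uhrf2, the paralogue of Uhrf1, averaged 2.83 ± 0.298 CPM in CKO and 0.968 ± 0.226 CPM in WT at GO 2W (1.53, adjusted p = 0.028), and 3.28 ± 1.58 CPM in CKO and 0.121 ± 0.132 CPM in WT zygotes (4.68, adjusted p = 1.2e-06). The zygote values rest on 47, 40 and 106 counts in the CKO libraries and 2, 6 and 0 in the WT libraries, so the size of the change is uncertain. Cdca7l, a paralogue of Cdca7, was lower in CKO at MII 3W, at 7.94 ± 3.37 CPM in CKO and 24.7 ± 2.23 CPM in WT (-1.63, adjusted p = 3.5e-05), and in zygotes, at 11.1 ± 6.33 CPM in CKO and 40.7 ± 2.97 CPM in WT (-1.87, adjusted p = 3.2e-05). Cdca7, a partner of the HELLS remodeller, averaged 5.02 ± 1.68 CPM in CKO and 14.8 ± 0.372 CPM in WT at FGO 4W (-1.56, adjusted p = 0.00015). The DNA ligase gene Lig1 was also lower there (-1.19, adjusted p = 0.00084), and Usp7, whose product stabilizes DNMT1 and UHRF1, was lower at FGO 3W (-0.60, adjusted p = 0.014).

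Among 16 tested genes of 5-methylcytosine oxidation and base excision repair, 1 was higher and 2 lower at GO 2W, 1 and 2 at FGO 3W, 1 and 4 at FGO 4W, 1 and 4 at MII 3W, and 6 and 1 in zygotes. Tet1, a dioxygenase related to Tet3, was higher in CKO at each of the 4 oocyte stages. It averaged 9.16 ± 1.90 CPM in CKO and 4.11 ± 0.663 CPM in WT at GO 2W, 20.8 ± 2.17 CPM in CKO and 6.81 ± 0.334 CPM in WT at FGO 3W, and 13.7 ± 1.65 CPM in CKO and 2.41 ± 0.498 CPM in WT at MII 3W. Its log2 changes were 1.15, 1.61, 1.68 and 2.51 (adjusted p = 0.0039, 0.00086, 3.2e-05 and 5.5e-08). Xrcc1, a scaffold of base excision repair, was lower in CKO at FGO 4W (-1.12, adjusted p = 1.9e-05) and higher in CKO zygotes (1.72, adjusted p = 6.0e-08), where it averaged 37.9 ± 5.76 CPM in CKO and 11.5 ± 2.76 CPM in WT. Ung, a uracil glycosylase gene, was lower at MII 3W (-1.92, adjusted p = 2.6e-07).

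Among 9 methyl-CpG readers, edgeR called none at GO 2W or FGO 3W (2 and 1 at an unadjusted p under 0.05), then 1 higher and 1 lower at FGO 4W, 2 and 1 at MII 3W, and 1 and 2 in zygotes. Zbtb33, which encodes the reader Kaiso, averaged 19.0 ± 2.88 CPM in CKO and 36.2 ± 3.35 CPM in WT at MII 3W (-0.93, adjusted p = 0.0012). Mbd2 was higher at MII 3W (1.56, adjusted p = 0.0022), and Mbd1 was lower at FGO 4W (-1.24, adjusted p = 0.031) and in zygotes (-1.89, adjusted p = 0.0021).

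Among 24 genes that modify H3K36 or H3K4, 2 were higher and 3 lower at GO 2W, 3 and 4 at FGO 3W, 3 and 2 at FGO 4W, 6 and 2 at MII 3W, and 4 and 2 in zygotes. Kdm2b, an H3K36 demethylase gene, was lower in CKO at GO 2W (71.1 ± 2.78 CPM in CKO and 155.7 ± 42.8 CPM in WT, -1.13, adjusted p = 0.00027), at FGO 3W (-1.53, adjusted p = 7.2e-05) and in zygotes (-0.79, adjusted p = 0.0031). Kmt2a, an H3K4 methyltransferase gene, held 258, 231 and 177 counts in the CKO libraries and 14, 12 and 2 counts in the WT libraries of FGO 4W. Its level there was 8.48 ± 1.27 CPM in CKO and 0.355 ± 0.247 CPM in WT (4.57, adjusted p = 6.9e-05). Kdm5b, an H3K4 demethylase gene, was higher at FGO 4W (1.71, adjusted p = 0.0004).

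Among 16 genes of imprint protection and H3K9 methylation, 0 were higher and 1 lower at GO 2W, 0 and 2 at FGO 3W, 0 and 2 at FGO 4W, 6 and 3 at MII 3W, and 5 and 4 in zygotes. Zfp57, which protects imprints, averaged 1628 ± 421 CPM in CKO and 3838 ± 188 CPM in WT zygotes (-1.24, adjusted p = 4.0e-06) and was lower at GO 2W too (-0.49, adjusted p = 0.049). Suv39h1, an H3K9 methyltransferase gene, was lower at FGO 4W (-0.77), MII 3W (-1.18) and in zygotes (-1.93, adjusted p = 3.4e-07), where it averaged 17.1 ± 6.26 CPM in CKO and 65.2 ± 13.5 CPM in WT. Atrx was lower at FGO 4W (-1.80, adjusted p = 4.8e-07).

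Among 19 tested genes of methyl donor supply, 0 were higher and 1 lower at GO 2W, 0 and 2 at FGO 3W, 2 and 2 at FGO 4W, 5 and 7 at MII 3W, and 1 and 6 in zygotes. Mthfd1, a folate cycle enzyme gene, averaged 12.7 ± 2.62 CPM in CKO and 41.3 ± 2.60 CPM in WT at MII 3W (-1.70, adjusted p = 1.7e-08). Mat1a, a gene of S-adenosylmethionine synthesis, averaged 21.5 ± 6.40 CPM in CKO and 44.8 ± 0.799 CPM in WT zygotes (-1.06, adjusted p = 6.4e-05). The median of this list at MII 3W was -0.57, beside 0.13 over all genes. That of the maintenance list was near it, at -0.54. The medians there were 0.00 for oxidation and repair, 0.36 for readers, 0.42 for H3K36 and H3K4 and 0.19 for imprint protection.

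**Figure D4:**
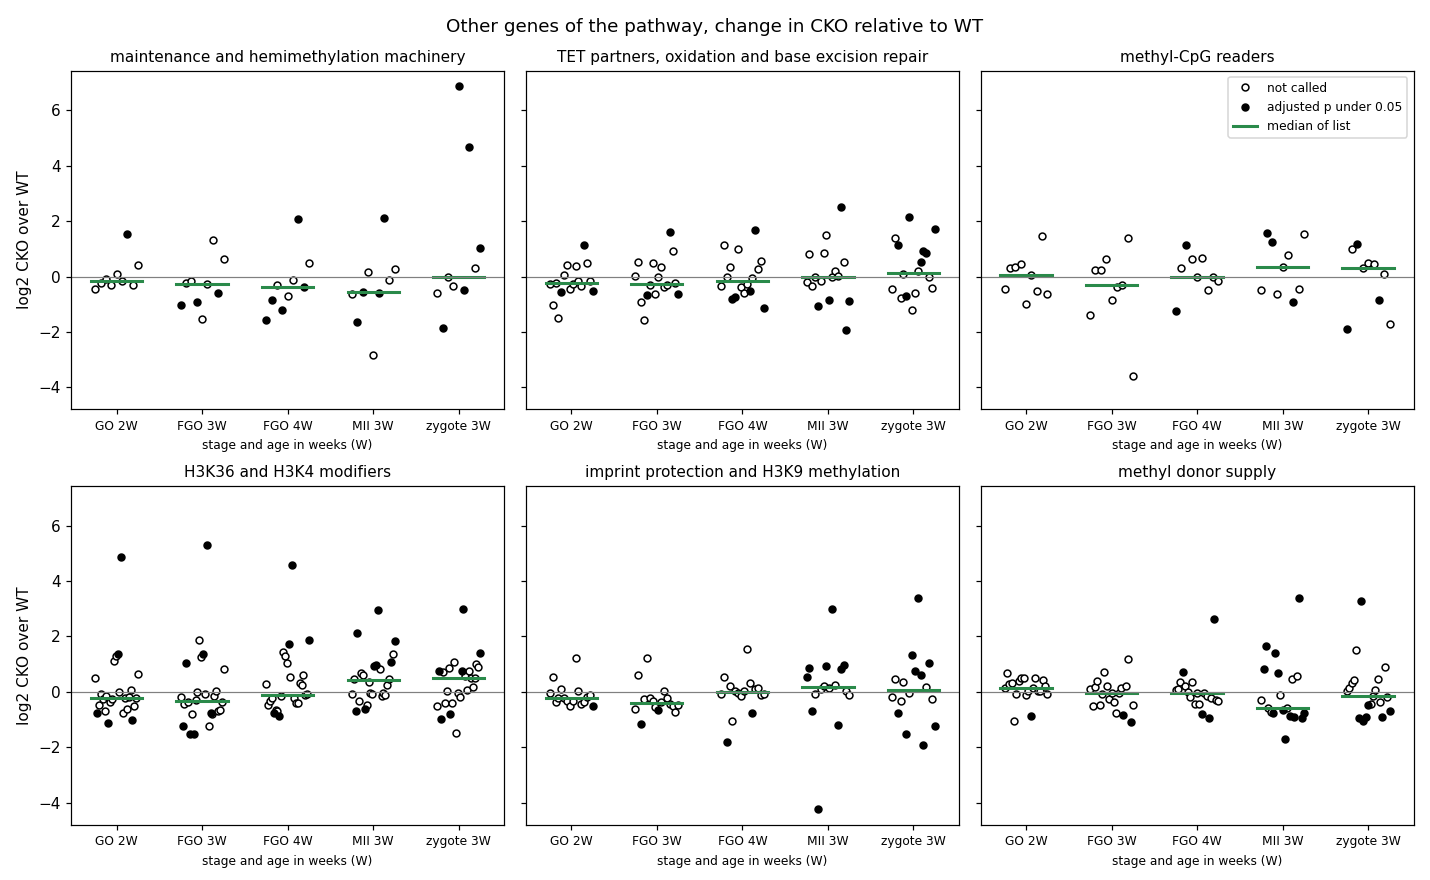
Log2 change in CKO relative to WT (vertical axis) of the tested genes of 6 lists at each stage, filled where the adjusted p was under 0.05, with the list's median as a green line. Kmt2a lies at 5.31 in FGO 3W and 4.57 in FGO 4W. In MII 3W the methyl donor list has its median at -0.57 and the maintenance list at -0.54.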

How the data were processed

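Libraries of 10 pooled mouse oocytes or zygotes were made with Smart-seq2, and an external spike-in went into the lysate, per the labels' protocol. The spike-in was not used for scaling here. The submitters' processing notes name featureCounts, HISAT2, SAMtools, Trim Galore and FastQC with the mm10 build but no versions, and strand and annotation are not given in the sources used here. The deposited counts are raw reads per gene symbol, and 81% of counts from 1 to 20 were even. The deposited FPKM, made by the authors, equalled the count divided by gene length and library total in 8111 genes (largest relative range 4.7e-16). The model was edgeR 4.0.16's quasi-likelihood fit (R 4.3.3), with TMM factors, filterByExpr (minimum count 10), 1 model of 10 groups, trended dispersion, 19 residual degrees of freedom and Benjamini-Hochberg adjustment at 0.05. The fit was also run on simulated counts drawn independently for each library. Such counts cannot show the effect of shared animals, of scaling shifts between genotypes or of libraries rich in Rn18s-rs5. The SE is the size of the unshrunk change over the root of F, and log2 CPM used a prior count of 2. DESeq2 1.42.0, limma 3.58.1 on log2(FPKM + 1) and log2(FPKM + 0.1), for genes with an FPKM of at least 1 in 2 libraries, and other settings served as alternatives. Sequences were searched and figures drawn with Python 3.11.15, pandas 2.3.3 and matplotlib 3.10.9.

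Named genes were the 10 members at every comparison, up to 2 called genes per list and stage with the smallest adjusted p, and the 3 most alike genes of 4 members. Members and lists were chosen with earlier results of these data known. Whether replicate tubes held cells of different animals is not labelled, and a p-value here reflects only how far these tubes differ, which may be technical. Depth was 17697507 to 49104313 counts per library, and the lowest count of any member was 121. Where age differs between stages, its part and that of any batch cannot be told apart.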

Additional observations from a re-analysis of the deposited data

Results flagged for a closer look

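The CKO over WT change differed between FGO 3W and MII 3W, by edgeR's test of the difference itself (adjusted p under 0.05), for Dnmt1 (difference 1.93 on the log2 scale), Tet3 (1.10), Dnmt3l (1.07) and Uhrf1 (0.67), with CKO relatively higher at MII 3W in each. It differed between MII 3W and zygote 3W for Dnmt1 (-0.99), Dnmt3b (0.99), Kdm1b (0.87) and Uhrf1 (0.87). Each of these differences shares the MII 3W libraries with another, so they are not independent. In the group of 4 libraries (CKO MII 3W), no library of any of the 10 genes stood apart from the other 3 by Dixon's test, and groups of 3 or fewer were not tested.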

How the results depend on the processing

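Of the 25 calls of the 10 members between CKO and WT at single stages, 14 were kept under all alternatives run and 11 were lost under at least 1. The 4 members called at GO 2W became 2 with library totals as the only scaling and 2 with limma on log2(FPKM + 1) or log2(FPKM + 0.1), and 1 to 4 when single libraries were left out. The 3 members called at FGO 3W became 7 with 1 dispersion for all genes (2 to 3 without single libraries). The 7 called in zygotes became 4 when that stage was fitted alone (6 to 8 without single libraries). The 8 calls among differences between stages became 3 with library totals and 3 with either FPKM setting, and 4 to 9 without single libraries. Library totals moved the median change of all genes by over 0.1, to 0.15 (GO 2W), 0.20 (FGO 3W), 0.18 (FGO 4W) and 0.32 (MII 3W), and the share of higher among called genes to 71.8%, 67.7%, 59.1% and 69.8%, against 53.5%, 46.0%, 44.4% and 55.4% with TMM. In zygotes that share was 43.4% with library totals and 53.8% with TMM, and from FGO 3W to MII 3W it was 22.8% in CKO and 21.9% in WT, against 43.6% and 41.0%. The cause of these differences was not tested.

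From FGO 3W to MII 3W some changes turned sign with library totals, log2(FPKM + 1) and log2(FPKM + 0.1). In CKO these were Dnmt1 (-0.065, -0.073 and -0.074), Dppa3 (-0.11, -0.12 and -0.12), Nsd1 (-0.48, -0.41 and -0.48), Dnmt3l (-0.51, -0.51 and -0.52) and Kdm1b (-0.37, -0.41 and -0.42). In WT they were Uhrf1 (-0.14, -0.11 and -0.11), Nsd1 (-0.57, -0.51 and -0.56) and Dnmt3a (-0.20, -0.17 and -0.18).

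CKO and WT libraries of a stage that share a replicate number did not deviate together: their correlations ran between -0.080 and 0.039. With the number as a replicate block within each stage, the calls of Dnmt3l were lost at FGO 3W (-0.70, adjusted p = 0.0505) and in zygotes (0.42, adjusted p = 0.126). The comparison with FGO 4W in the differences between stages, and leaving out the 2 libraries rich in Rn18s-rs5, were chosen after the data had been seen.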
